A study of Mus musculus with 6 samples.

Results

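The distal part of the forelimb bud labelled as a double knockout of Ring1A and Ring1B was set against the proximal part of the control bud. The comparison asks which genes of the proximal bud are at their proximal control level in that distal tissue, and which are not. It rests on 2 of the 6 arrays of the series, 1 per group, so no value below has a replicate check and no p-value was computed. All embryos were E10.5 and of the CD1 strain. The proximal control carries the genotype label Ring1A-/-, although its description reads wild type. The distal double knockout (dKO) has the genotype Prx1-Cre; Ring1A-/-; Ring1Bfl/fl. By the genotype labels a deletion of Ring1A is shared by both groups, and the dKO adds the floxed Ring1B alleles and the Cre transgene; by the control's description Ring1A differs between them too. The distal control and the proximal dKO, 1 array each with the same respective genotypes, are given beside them. Wild type buds of dams gavaged at E10.25 with 100 mg/kg of retinoic acid (RA, the all-trans form), again 1 array per part, gave a further reading of the proximal excess, an alternative definition of proximal and distal genes, and part of the mean that chose each gene's probe set. Prx1-Cre is active in limb bud mesenchyme, so surface ectoderm, blood vessels and muscle precursors that enter from the somites are cell types in which the floxed allele is not the intended target. The sources used here do not say how many embryos gave each RNA.

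RING1A and RING1B are the ubiquitin ligases of Polycomb repressive complex 1, which marks histone H2A and keeps developmental regulators silent where they are not needed. The limb bud grows out from the flank, and its proximal part, next to the body wall, expresses Meis homeobox genes in response to RA, while the distal part lies under the apical ectodermal ridge, whose FGFs oppose them. Genes of the Hox clusters and the Iroquois genes are known Polycomb targets that are restricted along the limb axes.

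The signals of the targeted genes did not separate the groups. Rnf2, the gene of RING1B, had signals of 2042 in the proximal control, 2070.0 in the distal control, 2147 in the proximal dKO and 1887 in the distal dKO by its brightest probe set, and 1015, 1013, 1160.0 and 1012 by the other one above the floor. Its 3 remaining probe sets were at the floor on all 6 arrays. Ring1, the gene of RING1A, had signals of 624, 968, 402 and 578 in the same order, and of 419.8 and 245 in the proximal and distal RA arrays, whose label is wild type. Rnf2 was thus not lower in the dKO arrays, and Ring1 was higher in the arrays labelled Ring1A-/- control than in those labelled wild type. Where these probe sets lie relative to the deleted parts is not known here, and a probe set outside the deleted part checks nothing. Control and dKO therefore stand below for the arrays so labelled, in every direction given.

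The values are MAS5 signals on a linear scale. Any signal lower than its array's median was raised to it, and that median is the floor (64.0 in the proximal control, 59.5 in the distal control, 73.0 in the proximal dKO and 76.1 in the distal dKO), and log2 was taken. Each of 18193 genes was read from 1 probe set. A gene was called a proximal gene where its proximal control signal was at least 2-fold its distal control signal, which held for 154 of 11391 genes above the floor in the control pair (1.35%). A proximal gene was said to have reached the proximal level where its distal dKO value was no more than 0.5 below the proximal control value on the log2 scale (1.41-fold), and to have stayed below where it was 2-fold or more lower. The proximal control array enters both the choice of genes and the comparison, so a gene read too high there is chosen more often and then appears too low in the distal dKO. The RA arrays stood apart from the others in the BioB hybridization spike-in, at a mean signal of 110.0 and 123 against 1083 to 1208.

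Of the 154 proximal genes, 97 (63.0%) reached the proximal control level in the distal dKO, 22 (14.3%) stayed below it, and 35 (22.7%) lay between. Of those 35, 4 were at the floor in the distal dKO and could not be placed. Among all 11043 genes above the floor in the proximal control, 94.2% met the same condition for reaching the level and 0.489% met that for staying below. Since the proximal control array chose the proximal genes, nothing further was read from these shares. The median distal dKO minus proximal control difference of the 154 genes was -0.34 (range -2.90 to 2.11), against 0.01 over 11598 genes above the floor on either array, whose 5th and 95th percentiles were -0.45 and 0.99. The scaling of the arrays bears on these counts. After each array was divided by its median, which moved the median difference of all genes to -0.24, 46 of 124 proximal genes reached the level (37.1%) and 37 stayed below (29.8%). Against its own control part, the distal dKO was 2-fold or more higher for 91 of the 154 genes, with a median of 1.17, where 5.32% of all genes were 2-fold higher. Both comparisons share the control arrays that chose the genes.

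**Figure D1:**
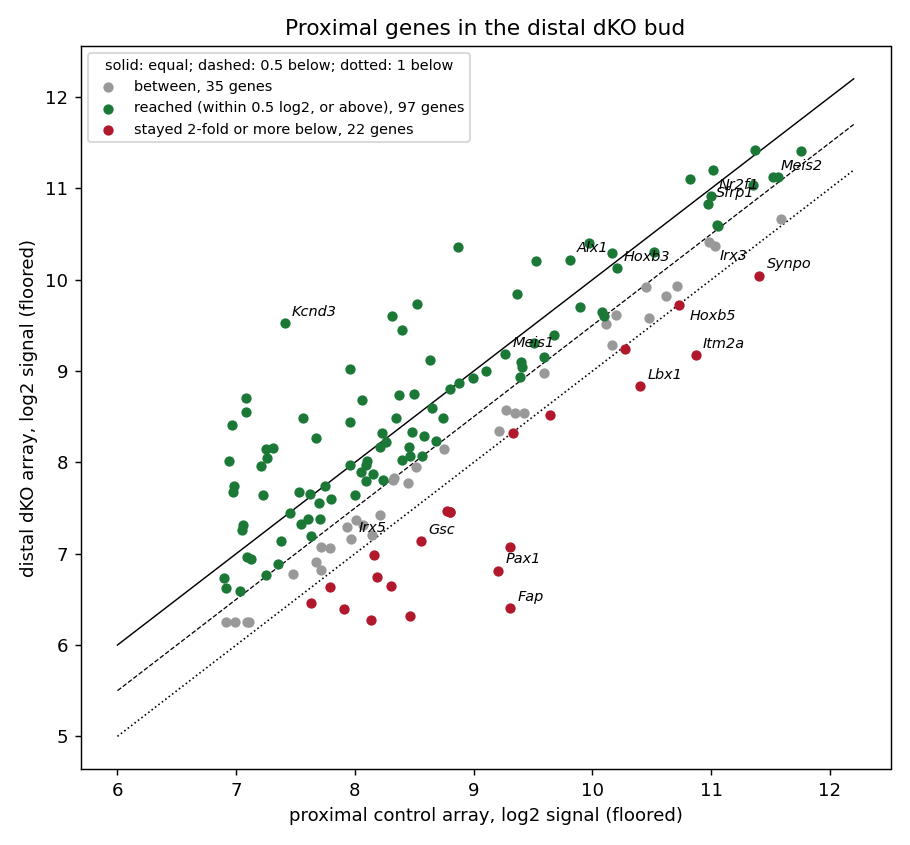
Log2 signal (floored) of the 154 proximal genes in the proximal control array (x axis) and in the distal dKO array (y axis), 1 point per gene, coloured by class. The 97 genes that reached the level lie on or above the dashed line, the 22 that stayed below lie under the dotted line, and Fap and Pax1 are the farthest below it.

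The pair of dKO arrays gives a reading that the choice of genes did not use, since the control and dKO pairs share no array. In the dKO bud, 29 of the 154 genes (18.8%) were still 2-fold or more higher proximally, and 0 were 2-fold higher distally. Over all genes 0.515% were 2-fold higher proximally in that pair. The median proximal excess of the 154 genes was 1.35 in the control pair, where it was the basis of the choice, and 0.63 in the dKO pair. In the RA pair, 89 of the 154 (57.8%) were 2-fold higher proximally, against 4.40% of all genes, with a median of 1.17. Of the genes that reached the level, 10 of 97 were still 2-fold proximal in the dKO pair, and of those that stayed below, 12 of 22 were. The distal dKO array set these classes and also enters the dKO excess, so nothing was read from that contrast.

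**Figure D2:**
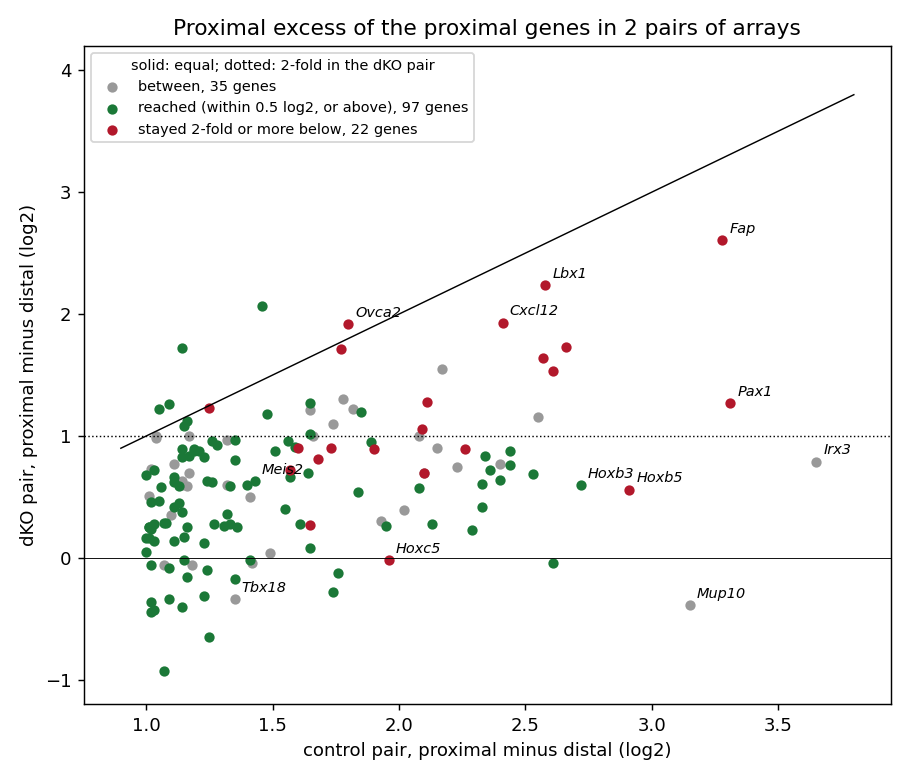
Proximal minus distal log2 difference of the 154 proximal genes in the control pair (x axis) and in the dKO pair (y axis), coloured by class. Most points lie under the line of equality, 29 lie at or above the dotted line at 2-fold, and Fap (2.61) and Lbx1 (2.24) keep the largest dKO differences. The classes were set with the distal dKO array and are not independent of the y axis.

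The promoters of 4 proximal genes are shown because they span the classes: Meis2 and Nr2f1 reached the level, Irx3 lay between and Pax1 stayed below. Each is the 250 bases before the gene's start from RefSeq (GRCm38.p6), printed 5′ to 3′ on the gene's strand with CG dinucleotides in capitals, since Polycomb complexes are known to gather at promoters rich in CG. Positions are chr2:116064620-116064869 (minus strand) for Meis2, chr13:78198874-78199123 (minus strand) for Nr2f1, chr8:91801655-91801904 (minus strand) for Irx3 and chr2:147364744-147364993 (plus strand) for Pax1.
Meis2: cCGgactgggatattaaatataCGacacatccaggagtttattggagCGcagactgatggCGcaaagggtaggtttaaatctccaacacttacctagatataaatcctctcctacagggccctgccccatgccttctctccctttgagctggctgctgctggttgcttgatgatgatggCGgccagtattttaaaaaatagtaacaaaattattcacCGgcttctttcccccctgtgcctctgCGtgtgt
Nr2f1: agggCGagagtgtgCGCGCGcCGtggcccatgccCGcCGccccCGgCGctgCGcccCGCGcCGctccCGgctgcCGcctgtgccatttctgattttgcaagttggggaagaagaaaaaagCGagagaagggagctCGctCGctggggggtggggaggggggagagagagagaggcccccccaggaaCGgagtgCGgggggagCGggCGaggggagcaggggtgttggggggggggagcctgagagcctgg
Irx3: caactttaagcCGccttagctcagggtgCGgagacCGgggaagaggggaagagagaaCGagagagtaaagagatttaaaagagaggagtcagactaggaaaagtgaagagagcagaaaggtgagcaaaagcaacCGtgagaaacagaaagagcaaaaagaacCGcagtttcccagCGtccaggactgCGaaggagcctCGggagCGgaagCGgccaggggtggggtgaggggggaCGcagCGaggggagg
Pax1: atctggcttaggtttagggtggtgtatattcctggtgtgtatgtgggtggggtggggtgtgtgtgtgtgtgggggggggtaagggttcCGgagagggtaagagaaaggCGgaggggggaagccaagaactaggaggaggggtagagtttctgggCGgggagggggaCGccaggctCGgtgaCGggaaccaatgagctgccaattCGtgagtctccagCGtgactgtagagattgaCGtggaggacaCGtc
CG, which reads the same on both strands, occurs 7 times in the Meis2 window, 22 times in that of Nr2f1, 13 times in that of Irx3 and 10 times in that of Pax1. The median over 27025 promoters was 6, and 38.2% held 10 or more. Among the 9386 genes with a promoter that were above the floor on either compared array, the median was 16. Of these, 77.1% held 10 or more, so the Meis2, Irx3 and Pax1 windows lay under that median. The proximal genes with a promoter had a median of 10, and 52.8% held 10 or more. The table matched 106 of the 154 proximal genes (68.8%), too few to compare the classes, so that comparison was void.

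Among the homeobox regulators that mark the proximal limb, the Meis genes were at or near the proximal level in the distal dKO. By signal, Meis1 stood at 614 in the proximal control, 202 in the distal control, 709 in the proximal dKO and 582 in the distal dKO, a distal dKO minus proximal control difference of -0.08 on the log2 scale. Meis2, which encodes the factor named in the series' title, had signals of 2941, 1094, 3456 and 2235 in the same order, a difference of -0.40. After division by the array median the Meis2 difference was -0.65, outside the allowance. In both genes the distal control was the lowest of the 4 arrays and the distal dKO lay under both proximal arrays. Of the other Meis2 probe sets, 3 were also 2-fold proximal in control, and all 3 reached the level (-0.11, 0.03 and 0.26).

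The Iroquois genes came close without reaching the level. Irx3, with the largest proximal excess of all genes in control (3.65), had signals of 2018 in the proximal control, 160 in the distal control, 2370 in the proximal dKO and 1367 in the distal dKO. Its difference was -0.56, just outside the allowance of 0.5, and it stood 3.09 over the distal control. Irx5, its neighbour in the genome, had signals of 251, 17.2 (at the floor), 286 and 143, a difference of -0.81. Both therefore kept a step between the dKO parts, of 0.79 for Irx3 and about 2-fold for Irx5. Irx2 was not a proximal gene: it had a signal of 67.6 in the proximal control and was at the floor in the distal control, and it stood at 211 and 207 in the dKO parts, 1.62 over the proximal control.

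Of the other proximal limb regulators, Shox2 and Rspo3 were 2-fold lower in the distal dKO. Shox2, needed for growth of the upper limb segment, had signals of 4135 and 4111 in the control parts and 1914 and 1943 in the dKO parts, a difference of -1.09 between the distal dKO and the proximal control. Rspo3, a WNT signalling enhancer, had a difference of -1.31 (signals of 792, 793, 335 and 319.8). Both were equally high in the control parts and lower in both dKO parts, so they were not proximal genes by the rule. Tbx18 was one, with signals of 1678 and 660 in control, 769 in the proximal dKO and 976 in the distal dKO. It lay between the classes at -0.78, and its dKO parts no longer differed by 2-fold (-0.34, higher distally). Over the whole list of proximal limb genes, 14 of 15 exceeded the floor on either array, with a median of -0.26. Of these, 1 was 2-fold higher (Irx2) and 2 were lower (Shox2 and Rspo3), where 4.91% of all 11598 genes were 2-fold higher and 0.466% lower.

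Within the HoxB cluster, Hoxb3, Hoxb4 and Hoxb6 reached the proximal level while Hoxb5, which lies among them, stayed below. Hoxb3 had signals of 1179, 179, 1689 and 1116 in the proximal control, distal control, proximal dKO and distal dKO, a difference of -0.08. Hoxb6 had signals of 300.1, 37.1 (at the floor), 427 and 320.4, a difference of 0.09, and Hoxb4 signals of 352, 90.8, 322 and 269, a difference of -0.39. Hoxb5 had signals of 1699, 226, 1241 and 844, and its difference of -1.01 was at the edge of the 2-fold threshold for staying below. After quantile normalization it was -0.99. Of the 4 proximal HoxB genes, 3 thus reached the level and 1 stayed below, and all 4 were within 2-fold between the dKO parts (0.26 to 0.60). Hoxb5os, an antisense transcript at Hoxb5, also reached the level (signals of 1005, 185, 2306 and 1358, 0.43 higher).

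At the 5′ end of the same cluster the distal dKO went past any control level. Hoxb9 had signals of 90.5 and 97.4 in the control parts and 644 and 646 in the dKO parts, 2.83 over the proximal control. Hoxb13 was at the floor in both control parts and had signals of 244 and 183 in the dKO parts, at least 1.52 higher. The list had 2 of 8 measured genes 2-fold higher and 1 lower, against 4.91% and 0.466% of all genes. Its median was 0.12, or -0.13 after division by the array median.

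In the HoxC cluster, genes on both sides of the level were again found. Hoxc4 reached the level (signals of 2136, 487, 1868 and 1540, a difference of -0.47), and Hoxc5 stayed below by -1.03, at the edge of the threshold. Other Hoxc5 probe sets that were proximal in control gave -0.77, between the classes, and -1.58. Hoxc5 had signals of 1240.1 and 320 in the control parts and 597 and 605 in the dKO parts, with the dKO parts nearly equal (-0.02). Hoxc8 and Hoxc9 were distal genes in control, with signals of 414 and 1083 and of 176 and 379. In the distal dKO they stood at 2403 and 1387, 2.54 and 2.97 over the proximal control and above the distal control as well. Hoxc10 and Hoxc13, at the floor in the proximal control, were at least 3.38 and 1.27 higher. In all 4 of 7 HoxC genes were 2-fold higher and 1 lower, against 4.91% and 0.466% of all genes. Their median was 1.27, or 0.68 with the floor at 1.5 times the array median.

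The HoxA cluster differed less between the arrays, while HoxD had 1 of 7 measured genes 2-fold higher and 1 lower (median -0.12). Of all genes 4.91% were 2-fold higher and 0.466% lower. In HoxA, Hoxa2 reached the level (0.25) and Hoxa4 lay between (-0.73), and 0 of 8 measured genes were 2-fold apart (range -0.83 to 0.25). In HoxD, Hoxd3 reached the level (signals of 273, 124, 397 and 223, a difference of -0.29). Hoxd11, a regulator of the middle limb segment, was lower in both dKO parts (233 and 439) than in the control parts (1032 and 1875), with a difference of -1.23. Hoxd13, a regulator of the digits, had signals of 1247 and 4035 in the control parts and 2521 and 2030.4 in the dKO parts, and in the distal dKO was 0.70 over the proximal control. Hoxd1, at the floor in both control parts, was at least 1.56 higher.

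Outside the Hox clusters, genes of several kinds were at proximal level in the distal dKO. Nr2f1, a nuclear receptor also called COUP-TFI, had signals of 2050.0 in the proximal control, 388 in the distal control, 3008 in the proximal dKO and 1933 in the distal dKO, a difference of -0.08. Sfrp1, a secreted WNT inhibitor, had signals of 2016, 392, 2999 and 1820.4, a difference of -0.15, and all 4 other Sfrp1 probe sets that were proximal in control also reached the level. Pkdcc, a secreted kinase for limb cartilage growth, had signals of 3023, 717, 3319 and 2231 (-0.44). In each of the 3 genes the distal control alone stood low, and the proximal dKO was the highest array.

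Further genes with a large control excess that reached the level were Tac1, which encodes the precursor of substance P (0.24), Ptger4, a prostaglandin receptor (0.49), Kcnq5, a potassium channel (-0.43), the transcription factor Foxp2 (-0.29), the transcriptional regulator Mn1 (-0.30) and the long non-coding RNA Crnde (-0.28). Alx1, an anterior homeobox gene, exceeded the level by 0.41 (signals of 898, 306, 1575 and 1194). Of the 154 proximal genes, 40 were at or over the proximal control value itself, and 10 were 2-fold or more over it. Over all 11598 genes 4.91% were 2-fold higher and the median difference was 0.01. Neither count was therefore read as a trait of the proximal genes. Kcnd3, a potassium channel, was the farthest over (2.11), with signals of 169.8 in the proximal control, 1351 in the proximal dKO and 735 in the distal dKO, and the distal control at the floor. In 19 of the 97 the proximal dKO was also 2-fold or more above the proximal control (4.07% over all genes), an array shared with the choice of genes.

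**Figure D3:**
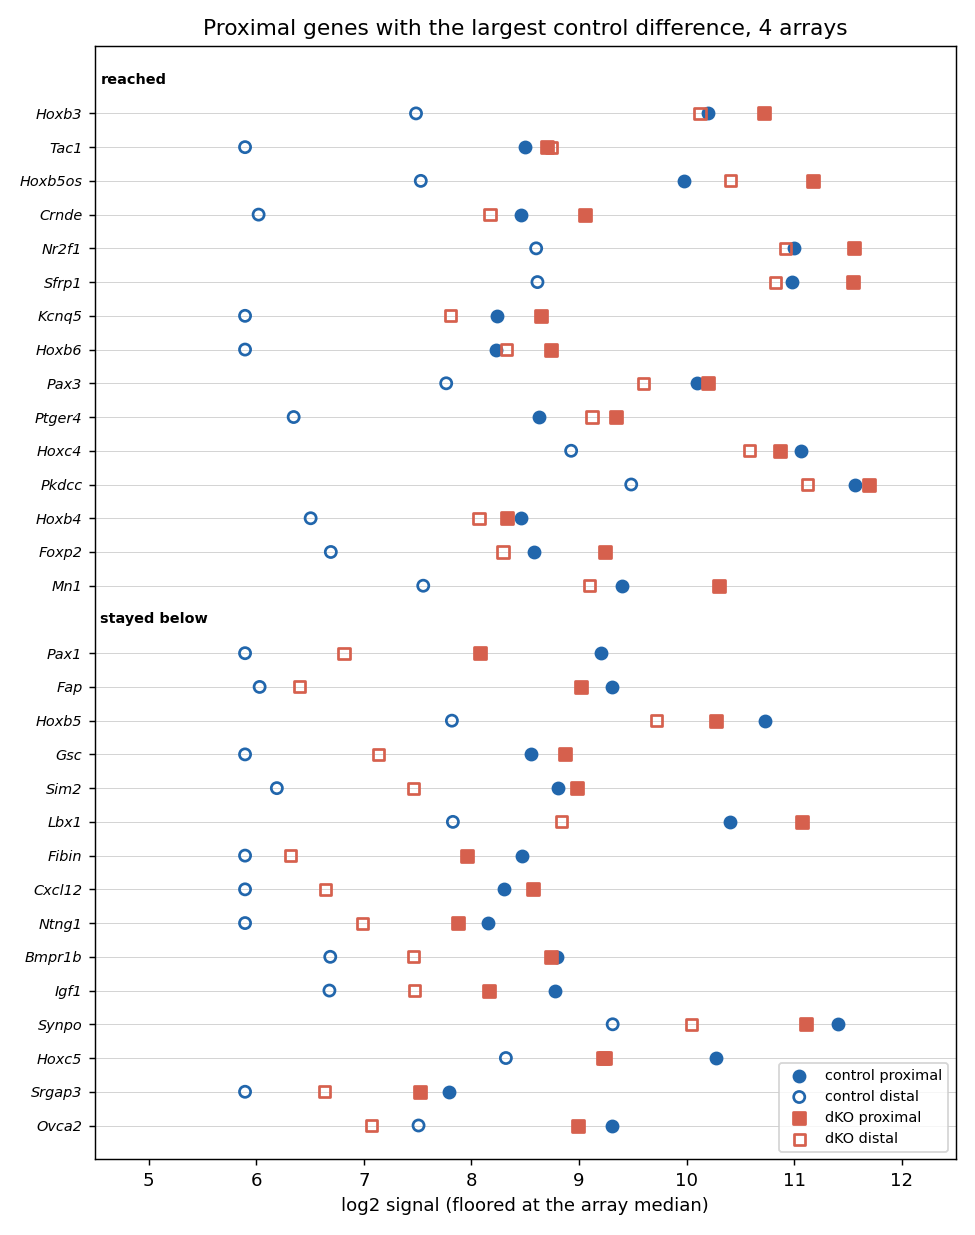
Log2 signal (floored) on the 4 control and dKO arrays for the 15 genes with the largest control difference that reached the level (top) and that stayed below it (bottom), 1 row per gene. In the upper set the open square (distal dKO) lies beside the filled circle (proximal control), and in the lower set it lies nearer to the open circle (distal control) for genes such as Fap and Fibin.

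The 22 genes that stayed below had a larger control excess (median 2.10) than the 97 that reached the level (1.24). Of the 35 proximal genes with a control excess of 2 or more on the log2 scale, 13 reached the level and 12 stayed below. Of the 88 with an excess of 1 to 1.5, 68 reached it and 1 stayed below. A gene with a small excess cannot lie far under the proximal level unless it is also under the distal control, so these counts follow in part from the definition. The median dKO excess was 0.77 in the first set and 0.47 in the second.

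Fap, a cell surface serine protease, was the farthest below the proximal level (-2.90). It had signals of 634 in the proximal control, 65.4 in the distal control, 518 in the proximal dKO and 84.7 in the distal dKO. The proximal arrays were both high and the distal arrays both low, and the distal dKO was 0.37 over the distal control. Fibin, a secreted factor (-2.15), and Cxcl12, a chemokine (-1.66), had the same pattern. Cxcl12 had signals of 315 and 379.9 in the proximal parts, 52.6 (at the floor) in the distal control and 100.0 in the distal dKO. Of the 22 genes, 15 were within 0.5 of the proximal control, or over it, in the proximal dKO, 8 were within 0.5 of the distal control, or under it, in the distal dKO, and 12 were still 2-fold apart between the dKO parts.

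A pair of transcription factors stood between the control parts. Gsc, the goosecoid homeobox factor, had signals of 377 in the proximal control, 20.1 (at the floor) in the distal control, 467 in the proximal dKO and 140.4 in the distal dKO, a difference of -1.42 from the proximal level and at least 1.24 over the distal control. Sim2, a bHLH-PAS factor, had signals of 447, 73.0, 506 and 176 (-1.35). Both were highest in the proximal dKO and kept a proximal excess there of 1.73 and 1.53. In all 5 of the 22 genes were 2-fold or more over the distal control.

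Other members were lower in the proximal dKO too. Pax1, a regulator of the anterior limb and of the sclerotome, had signals of 591 in the proximal control, 5.76 (at the floor) in the distal control, 271 in the proximal dKO and 113 in the distal dKO, a difference of -2.39. Its proximal dKO minus proximal control difference was -1.13. The mean over the Pax1 probe sets gave -1.07. Its paralogue Pax9 was at the floor in both control parts and had signals of 273 and 280.0 in the dKO parts, at least 2.13 over the proximal control. Altogether 3 of the 22 genes were 2-fold lower in the proximal dKO than in the proximal control (Pax1, Hoxc5 and Slitrk6), against 0.363% of all genes. None of the 97 genes that reached the level was. The proximal control array set both classes and enters both counts, so nothing was read from them.

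Further genes that stayed below were Bmpr1b, Igf1 and Synpo. Bmpr1b, a BMP receptor, had signals of 445, 103, 427 and 176 in the proximal control, distal control, proximal dKO and distal dKO (-1.34). Igf1, a growth factor, had signals of 439, 102, 287 and 177 (-1.31), and its other proximal probe sets gave -2.33 and -2.38. Synpo, an actin-associated protein, had signals of 2711, 636, 2209.9 and 1056 (-1.36). The mean over probe sets was -0.28 for Bmpr1b, -0.55 for Synpo, -0.13 for Ntng1, a netrin family protein, and -0.85 for Sim2, so that for these 4 genes the 2-fold deficit held for the brightest probe set and not for the mean. The other probe sets of Bmpr1b and Synpo, and most of those of Ntng1, gave 0.25, which is the difference of the floors. Their means thus join the deficit with probe sets at the floor, which say nothing on it. The other Sim2 probe set gave -0.35.

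Rarb, the RA receptor that is itself induced by RA, lay between the classes. It had signals of 617 in the proximal control, 117 in the distal control, 647 in the proximal dKO and 379.8 in the distal dKO, a difference of -0.70. Cyp26b1, the enzyme that breaks down RA in the distal limb, went under the proximal level, with signals of 302, 780.3, 79.3 and 117 and a difference of -1.37. Rbp4, a retinol carrier, had signals of 97.0, 101, 332 and 367 and was 1.92 over the proximal control. Of the RA response list, 1 of 9 measured genes was 2-fold higher (Cdx1, a caudal homeobox gene, at least 1.45) and 1 lower. Their median was -0.13, and 4.91% of all genes were 2-fold higher and 0.466% lower.

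Markers of cells that enter the proximal bud from outside were read in the same arrays. Lbx1, which migrating muscle precursors need to spread through the limb, had signals of 1355 in the proximal control, 227 in the distal control, 2157 in the proximal dKO and 456 in the distal dKO, a difference of -1.57. Another Lbx1 probe set that was proximal in control gave -0.52. Itm2a, a membrane protein of muscle precursors, stayed below by -1.69 (signals of 1870.1, 629, 951 and 578). Pax3, which muscle precursors also express, met the allowance by its brightest probe set (signals of 1096, 218, 1179 and 775, a difference of -0.50), but another probe set gave -1.87 and the mean over probe sets was -1.06. Meox2, a further gene of this list, was lower in both dKO parts (519 and 385, against 1069 and 1271) and was no proximal gene. The summed signal of the 9 muscle precursor markers on the array was 6947 in the proximal control, 3152 in the distal control, 7163 in the proximal dKO and 3448 in the distal dKO, and Myod1 and Myog were at the floor on all 4 arrays. That sum joins members with opposite differences: against the distal control, the distal dKO was higher for Pax3 (1.83), Pax7 (at least 1.49) and Lbx1 (1.01), and lower for Meox2 (-1.72). Against the proximal control, 1 of 7 measured markers was 2-fold higher (Pax7, at least 1.39) and 3 were lower, with a median of -0.50. The shares over all genes were 4.91% and 0.466%.

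Somite and body wall markers had summed signals of 3564 and 1363 in the control parts and 3274 and 2465 in the dKO parts. Uncx, Nkx3-2 and Tbx22 were at the floor on all 4 arrays. Of the 4 that were proximal genes, Tcf15 (-0.44) and Foxc2 (-0.13) reached the level, Tbx18 lay between and Pax1 stayed below. Endothelial markers summed to 5115 and 3978 in the control parts and 6897 and 5372 in the dKO parts, and 0 of 12 were 2-fold apart between the distal dKO and the proximal control (median 0.05, or -0.20 after division by the array median). Limb mesenchyme genes summed to 30482 in the proximal control and 27142 in the distal dKO, with 0 of 12 at 2-fold and a median of -0.16. Prrx1, the gene whose regulatory region drives the Cre, had signals of 6876 and 5539.8 on those arrays. Mesothelium markers, of the lining of the body cavity, summed to 112 and 256 in the control parts and 714 and 567 in the dKO parts. Of their 6 genes on the array, Msln, Lrrn4 and Upk1b were at the floor on all 4 arrays, and none of the 6 was above it in the proximal control. Gata4 (at least 1.51) and Upk3b (at least 1.29) were 2-fold higher in the distal dKO. For these lists too, the shares over all genes were 4.91% higher and 0.466% lower. The part of these cell types in the results was not tested. In whole tissue, fewer cells of a type and less RNA per cell cannot be told apart, and whether the cut between the parts fell at the same place in both genotypes was not tested.

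**Figure D4:**
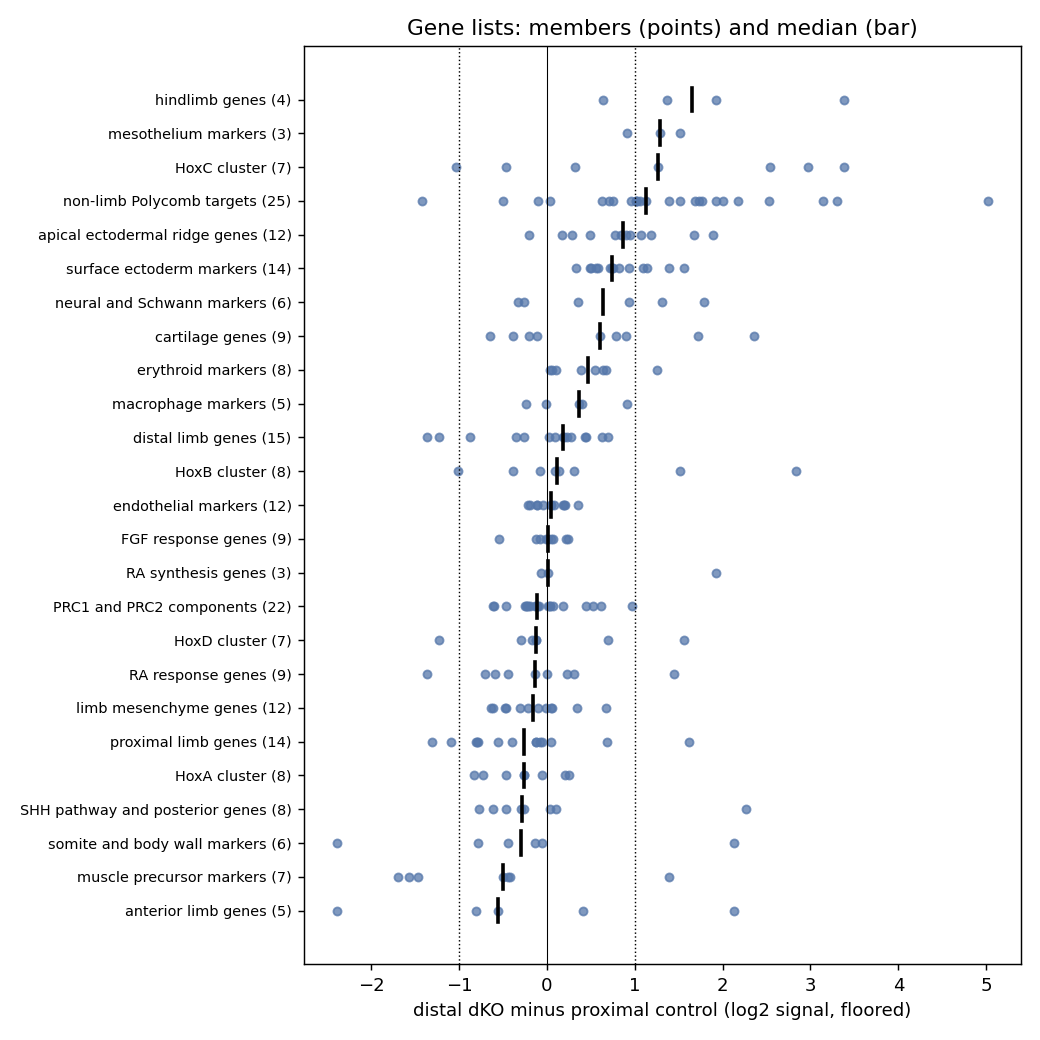
Distal dKO minus proximal control difference (log2 signal, floored) for the measured members of 25 gene lists, 1 point per gene, with the list's median as a bar and the number of measured genes in brackets. Hindlimb genes, mesothelium markers, HoxC genes and non-limb Polycomb targets lie to the right of 2-fold by their medians, and anterior limb and muscle precursor genes have the lowest medians. In the proximal control 0 hindlimb genes and 0 mesothelium markers were above the floor, so they were measured only through the array in which they are high. Their medians, and that of the Polycomb targets, are therefore no measure of those lists.

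The converse set is that of the distal genes. A distal gene was one with a distal control signal at least 2-fold its proximal control signal, which held for 159 genes (1.4% of 11391). In the distal dKO, 32 of them (20.1%) were down to the proximal control level, no more than 0.5 above it on the log2 scale, 89 (56.0%) stayed 2-fold or more above it and 38 lay between. Over all genes above the floor in the distal control, 88.6% met the first condition and 3.84% the second. The proximal control array took part in choosing the distal genes and enters both conditions, so nothing further was read from these shares. In the dKO pair 37 of the 159 (23.3%) were still 2-fold higher distally, where 0.722% of all genes were. In the distal dKO 77 were within 0.5 of their distal control value. The distal control array took part in choosing the genes and the share over all genes was not taken. Nothing was therefore read from that count. After division by the array median 65 of 196 distal genes were down to the level and 65 stayed above it.

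The genes at proximal level included those that link the ridge and the posterior organizer. Fgf4, a ridge growth factor, had signals of 92.7 in the proximal control, 2141 in the distal control, 26.2 (at the floor) in the proximal dKO and 104 in the distal dKO, 0.17 over the proximal control. Shh, the posterior signal, had signals of 130.1 and 1099 in the control parts and was at the floor in both dKO parts. Grem1, the BMP antagonist that relays between them, had signals of 357, 1208, 234 and 368, a difference of 0.04, and Gli1, an SHH target, 236, 568, 114 and 172, a difference of -0.46. In these 4 genes the distal dKO was also far under the distal control, with differences of -1.71 to -4.36. Beside Fgf4, Shh and Grem1, the genes among the 10 with the largest control difference were the connexin Gja3 (-0.57), Sall3, a zinc finger factor of distal mesenchyme (-0.35), Cyp26b1, the smooth muscle genes Tagln and Actg2, the acetylcholine receptor gene Chrna1 and Sptlc3, a sphingolipid enzyme. Actg2 and Chrna1 were at the floor in both the proximal control and the distal dKO, so their difference is that of the floors. Sptlc3 was at the floor in the proximal control and Tagln in the distal dKO. Spry1, an FGF feedback inhibitor, was equal to the proximal control (0.01). All 9 genes of the FGF response list were within 2-fold of the proximal control, with a median of 0.01 (-0.24 after division by the array median) and a range of -0.54 to 0.24.

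Of 14 surface ectoderm markers, 3 were distal genes, of which 2 stayed above the proximal level. Krt5, a keratin of basal epithelium, had signals of 251 in the proximal control, 948 in the distal control, 325 in the proximal dKO and 739 in the distal dKO, 1.56 over the proximal control. Wnt7a, a signal of the dorsal ectoderm, had signals of 306, 1093, 266 and 802 (1.39), Sp8, a zinc finger factor of the ridge, 604, 1549.9, 840.1 and 1379.9 (1.19), and Dlx5, a homeobox gene of the ridge, 55.4 (at the floor), 246, 156 and 238 (at least 1.89). In each the distal dKO was within 0.5 of the distal control. All 14 surface ectoderm markers were higher in the distal dKO than in the proximal control, with a median of 0.74 and a range of 0.33 to 1.56. Of them 4 were 2-fold higher, where 4.91% of all genes were. After division by the array median the list's median was 0.49. Their summed signal was 11710.1 in the proximal control, 20325 in the distal control, 13050.0 in the proximal dKO and 19992 in the distal dKO. Of the 8 ridge genes that were distal in control, 4 stayed above the proximal level and 2, Fgf4 and Wnt5a, were down to it. Bmp2, expressed in ridge and posterior mesenchyme, had signals of 89.7, 464, 261 and 432 and was 2.27 over the proximal control.

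**Figure D5:**
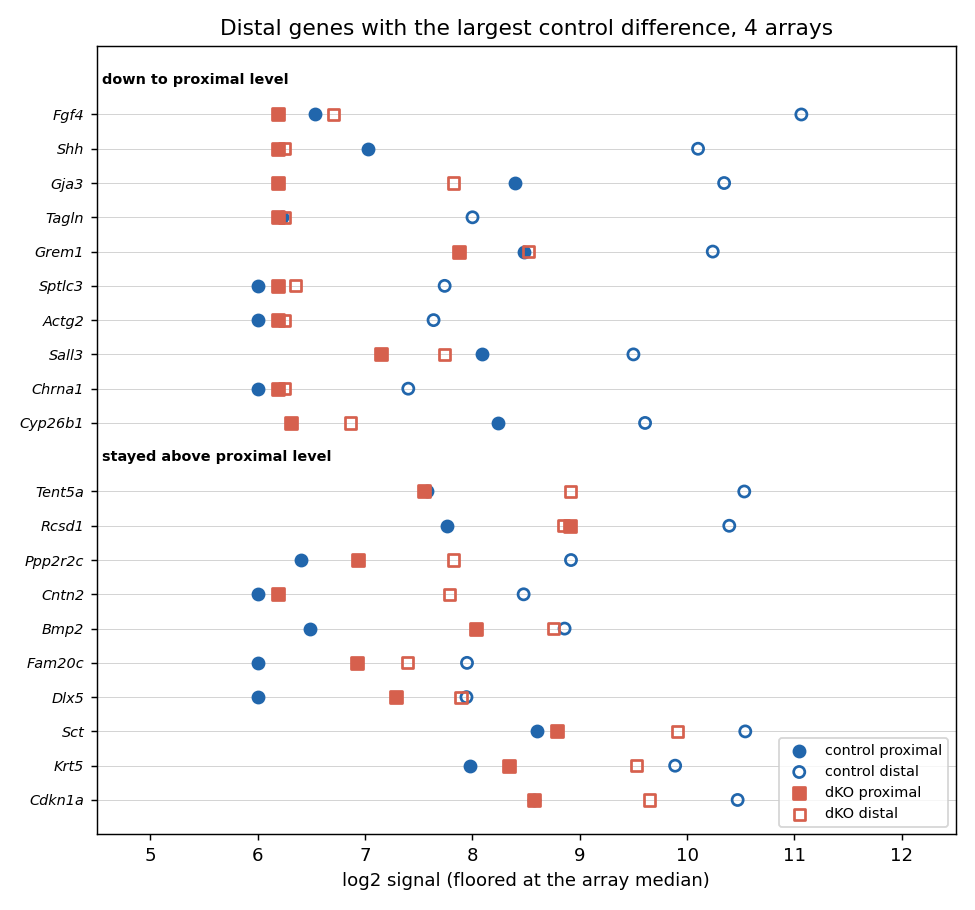
Log2 signal (floored) on the 4 control and dKO arrays for the 10 distal genes with the largest control difference that were down to the proximal level (top) and that stayed above it (bottom). In the upper set the open square (distal dKO) lies beside or left of the filled circle (proximal control), and for Bmp2, Dlx5 and Krt5 in the lower set it lies within 0.5 of the open circle (distal control).

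Other genes that stayed above the proximal level were Tent5a, a poly(A) polymerase family gene (1.33), Rcsd1 (1.08), Ppp2r2c, a phosphatase subunit (1.43), the adhesion molecule Cntn2 (at least 1.78), the hormone gene Sct (1.31) and Cdkn1a, a cell cycle inhibitor (1.07). Tent5a, Rcsd1 and Ppp2r2c were 2-fold or more under the distal control as well, so they stood between the control parts. Rcsd1 no longer differed by 2-fold between the dKO parts (signals of 481 proximally and 460.3 distally), both being over the proximal control. Rcsd1, Ppp2r2c, Cntn2 and Cdkn1a were under 2-fold by the mean over probe sets (0.46, 0.64, 0.69 and 0.73).

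A proximal level was not the only outcome of the comparison. The distal dKO was 2-fold or more higher than the proximal control for 569 genes (4.91%) and lower for 54 (0.466%) of 11598. Of the 569, 89 were the distal genes above, and 354 were 2-fold over both control parts (3.01% of 11748 genes above the floor on any of the 3 arrays), 8 genes being in both sets. After division by the array median the counts were 326 higher and 144 lower, and after quantile normalization 450.0 and 77. Of the 354 genes over both control parts, 116 (32.8%) were at the floor in both, so their folds are lower bounds. In the proximal dKO 269 of them (76.0%) were also 2-fold over the proximal control, the array that took part in choosing them, so nothing was read from that share.

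Of the 12 genes farthest over both controls, 4 were transcription factors, Zic1, Pou3f3, Onecut2 and Hoxc10. Zic1, a neural zinc finger factor, had signals of 20.1 and 13.1 (at the floor) in the control parts and 1497 and 2074 in the dKO parts, at least 5.02 over the proximal control. Pou3f3, a POU factor of brain and kidney, was 3.14 higher at a signal of 584, with signals of 66.2 and 62.0 in the control parts, both just above the floor. Onecut2, a liver and neural factor, was at least 2.97 higher. Hoxc10 was at least 3.38 higher. Ina, an intermediate filament of neurons (at least 3.62), St8sia3, a brain sialyltransferase (at least 3.13), Fabp3, a fatty acid binding protein (3.46), Cgas, a DNA sensor (at least 3.31), and Cbr3, Trank1, Ddx43 and Foxl2os were the others. Of 49 Polycomb targets of other organs, 8 exceeded the floor in the proximal control and 25 in the distal dKO, and 23 were at the floor on all 4 control and dKO arrays. Of the 49, 17 were 2-fold higher than in the proximal control and 1 was lower (Gsc). Over all 11598 measured genes the shares were 4.91% and 0.466%, but these leave out genes at the floor on both arrays, which the 49 do not. Most of the 25 could be measured only through the array in which they are high, so neither their count nor their median is a measure of the list. Pax6, En2, Cdx2 and Isl1 were at least 2.17, 2.53, 3.30 and 1.93 higher.

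The 18 genes under both control parts (0.153%) were few. Mab21l2, a developmental gene of eye and limb, had signals of 1363 and 1808 in control and 174 and 247 in dKO, a difference of -2.46. Mid1, a ubiquitin ligase, had signals of 638, 569, 110 and 127 (-2.32). Saa1 and Saa2, acute phase proteins whose near-identical transcripts these probe sets may share, had differences of -1.78 and -1.95. Others of the 18 were Dcx, a microtubule protein (-2.12), Cdkal1 (-1.84), the histone gene H1f2 (-1.53) and Vcam1, an adhesion molecule (-1.48). Of the 18, 16 were 2-fold under the proximal control in the proximal dKO too (0.363% over all genes). The proximal control array took part in choosing them, so nothing was read from that count. Of the 54 genes lower in the distal dKO than in the proximal control, 22 were the proximal genes above, 18 were these and 14 were neither.

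Genes near the thresholds show how fine the classes are. Pax3 and Hgf lay just inside the allowance for reaching the level (-0.50 and -0.49), and Eya1 and Pde8a just outside it (-0.50 and -0.52). Epha7 and Hoxb5 (both -1.01) were just 2-fold below, and Cav1 and Zfhx4 (both -0.93) just short of it. Other probe sets gave a further reading of the same RNA. Of 168 other probe sets of the proximal genes, 45, belonging to 27 genes, were themselves proximal in control. Of these 45, 29 fell in the same class as the probe set used, and 1, of Pax3, moved between the outer classes. The rest of the 168 did not repeat the 2-fold proximal call, whether at the floor or, as for a Hoxb3 probe set (0.74), above it in the distal dKO.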

How the data were processed

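Gene expression was measured in total RNA of forelimb bud parts on Affymetrix arrays, 1 per group. The deposited values are MAS5 signals, a linear intensity per probe set that the authors' software scaled per array, per the labels and the submitters' processing notes. The mean after trimming 2% at each end was 500.0 on all 6 arrays. From 45101 probe sets, 64 controls were left out, and 34958 with a single gene symbol gave 18193 genes, each read from its brightest probe set (mean log2 over the 6 arrays). The median of an array served as its floor. A gene entered a comparison where it was above the floor on at least 1 of its arrays. Differences are log2 differences of single arrays, and the number of arrays limits the precision. With 1 array per group no test was run.

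Named genes were every proximal gene on a list, the 15 with the largest control difference among those that reached the level and among those that stayed below, the 10 largest in each distal class, the 12 farthest from the nearer control array among the genes outside both controls, and list members at 2-fold. Predicted genes were not named, and not every gene the rule covers is described. Kcnd3, Slitrk6, Gli1, Spry1, Hoxd13, Prrx1, Wnt5a, the targeted genes and the genes beside the thresholds fall outside that rule and were chosen after their values were seen. The members and the 25 lists were chosen with earlier results of these data known. The class rules were tested on simulated data. Alternatives changed the scaling, the floor, the probe set, the thresholds and the arrays that define the genes. Python 3.11.15, pandas 2.3.3 and numpy 2.4.6 were used.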

Additional observations from a re-analysis of the deposited data

How the results depend on the processing

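No paired analysis was possible because each group had 1 array and the labels give no replicate numbers. No count can change sign, and no named gene or list median at 2-fold or more changed direction under any alternative run. Some named genes' values and list medians nearer 0 changed sign. After division by the array median, HoxB went from 0.12 to -0.13, distal limb genes from 0.18 to -0.07, endothelial markers from 0.05 to -0.20, FGF response genes from 0.01 to -0.24 and RA synthesis genes from 0.01 to -0.24. The balance of distal genes also moved: 32 were down to the level and 89 above it, against an even 65 and 65 after that division. It turned, to 516 and 89, only with genes defined by the RA pair, which is another set of 708 genes. Quantile normalization and a floor at 1.5 times the median left all 8 counts within 1.5 times their values. Dividing each array by its median gave 326 genes higher and 144 lower in the distal dKO than in the proximal control, 46 proximal genes at the level, 37 below it, 65 distal genes down to the level, 197 genes above both controls and 50 below both. With log2(signal + 50) and no floor, 61 of 115 proximal genes reached the level and 49 of 111 distal genes stayed above it. The mean over probe sets gave 352 genes higher, 35 lower, 60 of 100 proximal genes at the level, 50 of 104 distal genes above it and 224 genes above both controls. At 1.5-fold the counts were 1329 higher, 293 lower, 314 of 434 proximal genes at the level and 83 below, 153 of 440 distal genes down and 267 above, 908 genes above both controls and 96 below both. At 3-fold they were 194, 13, 25 of 61, 6, 7 of 42, 11, 129 and 4 in the same order. An allowance of 0.25 left 18 distal genes down to the level, and one of 1 gave 70.0. With genes defined by the RA pair, 409 of 506 proximal genes reached the level and 516 of 708 distal genes were down to it. With the dKO pair, 26 of 60 reached it and 13 stayed below, while 14 of 84 distal genes were down and 57 stayed above. With the control and RA pairs together, 49 of 89 reached it, 20 of 83 distal genes were down and 47 stayed above. The cause of these moves was not tested, beyond the change in the number of genes each setting admits. Of the named genes' values, 572 kept their side of 2-fold, 69 no longer passed it and 4 newly passed it, and of the list medians 117, 6 and 2 did. Single arrays limit every value, and signals near the floor give only bounds.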
